A study of Mus musculus with 8 samples.

Results

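The collagen chains are the 44 genes, of 24930 in the deposited expression table, whose symbol reads Col, a number, a, and a number, as in Col1a1. Of these, 31 were at 1 FPKM or more in at least 2 of the 8 libraries and were followed through the study. FPKM, fragments scaled by transcript length and library size, allows levels of different genes to be set side by side. By structural class the 31 comprised 10 of 11 fibrillar chains, 6 of 8 basement membrane chains, 5 of 9 FACIT chains (fibril-associated collagens with interrupted helices) and 10 of 16 other chains. The RNA came from mouse intestinal stromal cells with a low level of the receptor Pdgfra (Pdgfra-lo), which had been grown in Matrigel and recovered by sorting on GFP. BcatGOF coculture (2 libraries) held these cells together with duodenal enteroids, epithelial organoids, carrying a gain-of-function β-catenin. Wild-type coculture (3 libraries) held them with control enteroids, and mesenchyme only (3 libraries) was seeded with no organoids. All cocultures had 50000 Pdgfra-lo cells and ran for 7 days in a medium without EGF, R-spondin1 and Noggin, whereas seeding number and culture time are not stated for mesenchyme only. The promoter behind the GFP, the driver of the β-catenin allele and the age of the mice are not given in the labels. An inhibitor of the TGF-β receptor stands in the design text but on none of the sample labels. Nothing in the labels says that the libraries of a group came from separate mice, so p-values measure the spread between these libraries only.

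Collagens are secreted as helices of several chains. Fibrillar collagens such as types I, III and V assemble into the fibres that carry tension, type IV and the endostatin-bearing types XV and XVIII belong to basement membranes, FACIT collagens sit on the surface of fibres, and type VI forms beaded microfilaments around cells. In the intestine the stromal cells below the epithelium make most of this matrix, and the chains are widely used as markers of fibroblast activity.

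The 8 libraries were not alike, and this bears on every collagen value. The first principal component over 12927 genes held 40.3% of the variance and placed BcatGOF coculture library 2 at 63.6, against -38.9 to 25.4 for the other 7 libraries. FPKM summed over all genes ran from 577707 to 598384 in the libraries numbered 2, and from 438585 to 491706 in those numbered 1 and 3. The values and the main fit were not rescaled for this. The 6 stromal markers, Pdgfra among them, summed to 961 to 1376.6 FPKM in BcatGOF coculture, 1121 to 1582 FPKM in wild-type coculture and 1285 to 1336 FPKM in mesenchyme only, with none under 1 FPKM. The 12 epithelial markers summed to 29.7 and 121 FPKM in BcatGOF coculture, to 17.4, 5.62 and 121 FPKM in wild-type coculture and to 3.36 to 4.82 FPKM in mesenchyme only. Krt8, an epithelial keratin, was at 7.27 and 38.5 FPKM in BcatGOF coculture, at 3.86, 0.813 and 35.4 FPKM in wild-type coculture and at no more than 0.0848 FPKM in mesenchyme only. Pdgfra itself was at 99.8 and 52.4 FPKM in BcatGOF coculture, at 86.9, 86.5 and 108 FPKM in wild-type coculture and at 92.3, 101 and 134 FPKM in mesenchyme only. The 3 smooth muscle markers summed to 5.45 to 43.0 FPKM in BcatGOF coculture, 19.2 to 99.8 FPKM in wild-type coculture and 50.8 to 93.1 FPKM in mesenchyme only. Markers of immune cells (6) summed to 51.6 to 133 FPKM in BcatGOF coculture, 24.9 to 110 FPKM in wild-type coculture and 59.6 to 114 FPKM in mesenchyme only. Those of mesothelium (4) summed to 5.75 to 8.79 FPKM in BcatGOF coculture, 7.05 to 50.4 FPKM in wild-type coculture and 2.40 to 18.4 FPKM in mesenchyme only. Those of glia (3) summed to 0.666 to 9.12 FPKM in BcatGOF coculture, 1.02 to 1.70 FPKM in wild-type coculture and 0.570 to 0.794 FPKM in mesenchyme only. Most of each immune sum was Lyz2 and Cd14, and 3 of the 6 markers, Ptprc among them, were under 1 FPKM in every library. The highest mesothelial sum was mostly Wt1 (45.2 FPKM, wild-type coculture library 3), and Upk3b and Lrrn4 stayed under 1 FPKM throughout. The highest glial sum was mostly S100b (8.82 FPKM, BcatGOF coculture library 2), with Sox10 at no more than 0.0432 FPKM anywhere. The 5 endothelial markers stayed under 1 FPKM in every library. The part of these markers in the collagen values was not tested.

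The sequences just upstream of 5 chains are shown because the results turn on these genes: Col5a3, Col7a1 and Col24a1 are among the chains whose cocultures and mesenchyme-only libraries did not overlap, and Col3a1 and Col1a2 are among the most abundant chains. Each is the 150 bases before the annotated start, 5′ to 3′ on the gene's strand, from RefSeq on build GRCm38.p6. Capitals mark matches to 3 short motifs, searched on both strands and without overlap in these windows: the CCAAT box, the TATA box written as TATAAA, and the SMAD-type element written as CAGACA.
Col5a3, chr9:20815068-20815217, minus strand: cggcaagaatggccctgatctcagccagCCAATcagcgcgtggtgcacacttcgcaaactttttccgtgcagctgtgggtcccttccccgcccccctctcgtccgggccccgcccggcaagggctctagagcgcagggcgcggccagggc
Col7a1, chr9:108953436-108953585, plus strand: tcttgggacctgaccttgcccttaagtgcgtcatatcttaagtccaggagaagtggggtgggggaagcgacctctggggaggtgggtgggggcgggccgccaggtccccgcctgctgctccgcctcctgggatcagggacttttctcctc
Col24a1, chr3:145292322-145292471, plus strand: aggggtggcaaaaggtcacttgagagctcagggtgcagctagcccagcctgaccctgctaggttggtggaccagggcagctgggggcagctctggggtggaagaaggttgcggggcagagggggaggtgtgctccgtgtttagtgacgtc
Col3a1, chr1:45311388-45311537, plus strand: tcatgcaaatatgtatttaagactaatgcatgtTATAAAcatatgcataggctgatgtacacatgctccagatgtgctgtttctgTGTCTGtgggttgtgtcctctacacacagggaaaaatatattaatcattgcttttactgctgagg
Col1a2, chr6:4505468-4505617, plus strand: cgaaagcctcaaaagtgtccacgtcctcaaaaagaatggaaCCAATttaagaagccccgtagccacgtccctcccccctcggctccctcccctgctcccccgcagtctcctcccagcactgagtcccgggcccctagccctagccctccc

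The Col5a3 and Col1a2 windows hold 1 CCAAT each, 122 and 109 bases before the start. The Col3a1 window holds a TATAAA match 117 bases before the start and, on the other strand, a CAGACA match at 65 bases. These are matches of letters alone, and their function was not tested. No match was found in the Col7a1 and Col24a1 windows. Among all 32475 windows of this length, 24.4% held CCAAT, 7.55% held TATAAA and 10.1% held CAGACA. Windows were available for 27 of the 31 chains, of which 6 held CCAAT, 3 held TATAAA and 5 held CAGACA. Col1a1, Col5a2, Col12a1 and Col14a1 had no entry.

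Collagen chains took up a variable share of the RNA. All 44 together held 2.23% and 0.670% of the summed FPKM in BcatGOF coculture, 2.52%, 1.57% and 3.63% in wild-type coculture and 1.65%, 1.15% and 3.38% in mesenchyme only. The share was lowest in BcatGOF coculture library 2 and highest in wild-type coculture library 3, and the 3 groups overlapped. In bulk RNA, fewer cells of a type and less of a transcript per cell cannot be told apart. Fibrillar chains dominated every library, with 68.6% to 82.5% of the collagen FPKM over the 8 libraries. The 5 most abundant chains by the mean of all libraries, Col3a1, Col1a1, Col1a2, Col4a1 and Col6a1, held 81.0% and 71.1% in BcatGOF coculture, 79.1% to 84.6% in wild-type coculture and 79.3% to 84.1% in mesenchyme only. FACIT chains held 1.83% and 5.10% of the collagen FPKM in BcatGOF coculture, 1.40% to 1.96% in wild-type coculture and 1.00% to 1.52% in mesenchyme only. The high value came from BcatGOF coculture library 2, in which Col12a1 alone held 4.25% of the collagen FPKM.

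**Figure D1:**
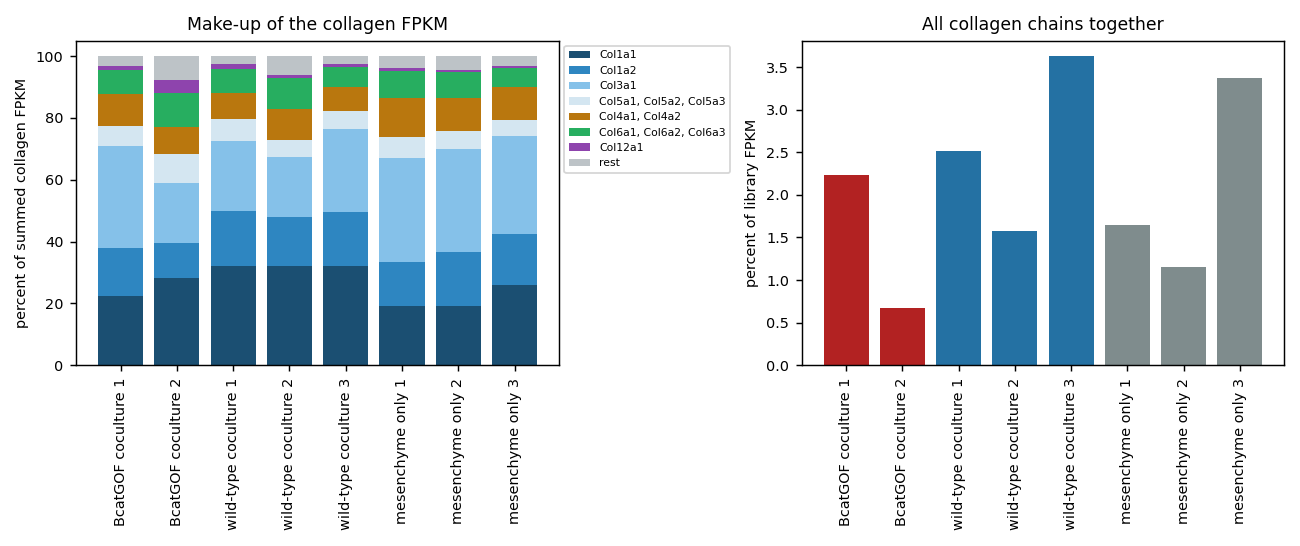
Share of each chain or chain family in the summed collagen FPKM of each library (left, percent) and share of all collagen chains in the library's FPKM (right, percent). Each bar is 1 library, with BcatGOF coculture, wild-type coculture and mesenchyme only in red, blue and grey on the right. Col1a1 held 32.0% to 32.3% of the collagen FPKM in wild-type coculture and 19.0% to 25.8% in mesenchyme only.

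Which chain came first differed by group. Col1a1, the main chain of type I collagen, was the most abundant in BcatGOF coculture library 2 and in all 3 wild-type coculture libraries. Col3a1, the single chain of type III collagen, was the most abundant in BcatGOF coculture library 1 and in all 3 mesenchyme-only libraries. Col1a1 held 22.3% and 28.3% of the collagen FPKM in BcatGOF coculture, 32.2% ± 0.114 in wild-type coculture (SD, n = 3) and 21.3% ± 3.88 in mesenchyme only (SD, n = 3). Col3a1 held 33.0% and 19.5% in BcatGOF coculture, 23.0% ± 3.67 in wild-type coculture and 32.9% ± 1.09 in mesenchyme only. For both chains the wild-type coculture and mesenchyme-only libraries did not overlap in this share. BcatGOF coculture library 1 lay within the range of mesenchyme only in both, and library 2 lay outside it.

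The 13 chains below the level set for inclusion include type II collagen (Col2a1) and type IX chains Col9a1 and Col9a3, known from cartilage, and Col4a3 and Col4a4, known from kidney basement membrane. Col17a1, a transmembrane collagen of epithelial hemidesmosomes, was at no more than 0.368 FPKM in any library. The others were Col6a4, Col6a5, Col6a6, Col19a1, Col22a1, Col25a1 and Col26a1. Col6a5 lay just outside, with 1 library, mesenchyme only library 1, at 1.14 FPKM. Col4a6, Col10a1 and Col28a1 lay just inside with 2 libraries each, and a chain that passes through 1 group alone had to differ between groups in level. This applies to Col28a1, which reached 1 FPKM in mesenchyme only libraries 2 and 3 alone, so its lower level in coculture was built into its inclusion and is not a result. Col10a1 reached 1 FPKM in 1 library of each coculture and in none of mesenchyme only. The filter thus favoured a higher level of Col10a1 in coculture than in mesenchyme only, which is not a result either. Col8a2 and Col9a2 passed with no BcatGOF library at 1 FPKM, and Col4a6 with no wild-type coculture at that level. A lower level of Col8a2 and Col9a2 in BcatGOF coculture was thus favoured, also without BcatGOF coculture library 1. For Col4a6 the filter favoured a lower level in wild-type coculture.

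**Figure D2:**
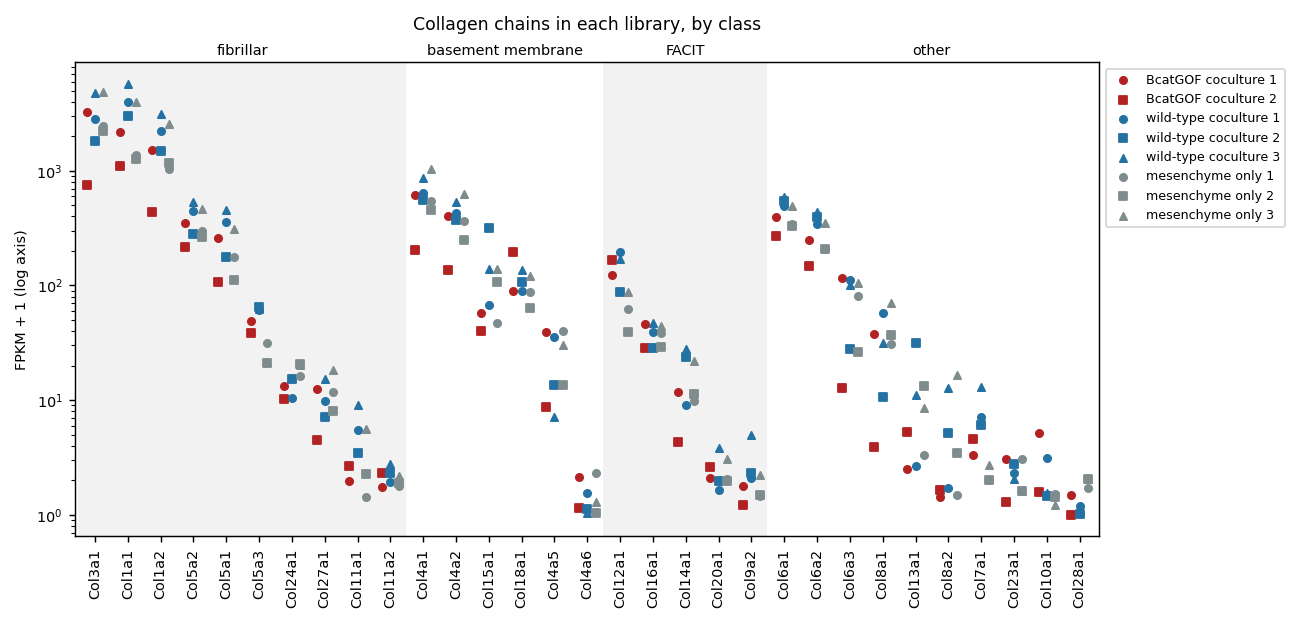
Level of the 31 collagen chains in each of the 8 libraries, as FPKM + 1 on a log axis, ordered by class and mean level. Colours are groups and symbols are replicate numbers; in BcatGOF coculture Col3a1 was at 3237 and 758 FPKM, the widest gap in FPKM among its fibrillar chains.

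Across all 3 comparisons no collagen chain passed limma at an adjusted p under 0.05, fitted on log2(FPKM + 1) over 12927 genes. The same test called 1 gene in BcatGOF coculture against mesenchyme only (0.00774%), 1 in wild-type coculture against mesenchyme only (0.00774%) and 0 in BcatGOF against wild-type coculture (0%, with 373 genes at an unadjusted p under 0.05). The statements that follow therefore describe values, and the unadjusted counts are read against the share of all genes that met the same rule. The comparisons of either coculture with mesenchyme only share the 3 mesenchyme-only libraries, so their values are given side by side. Over the 31 chains the median log2 fold change was -0.30 for BcatGOF coculture over mesenchyme only (0.01 over all genes), 0.28 for wild-type coculture over mesenchyme only (0.02 over all genes) and -0.81 for BcatGOF over wild-type coculture (0.01 over all genes).

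Setting BcatGOF coculture against mesenchyme only asks which collagen transcripts stromal cells carry beside β-catenin-activated epithelium. Chains at a lower level in BcatGOF coculture were the more frequent, since 9 of 31 had a log2 fold change above 0, against 52.4% of all genes. At an unadjusted p under 0.05, 2 chains were higher, Col5a3 and Col12a1 (2.88% of genes higher by this rule), and 2 were lower, Col24a1 and Col28a1 (2.62% of genes), or 1 without Col28a1, whose direction the filter fixed. The groups did not overlap in 4 chains that were higher: Col5a3, Col7a1, Col12a1 and, favoured by the filter, Col10a1 (8.49% of genes). Nor did they overlap in 2 that were lower, Col24a1 and, by the filter, Col28a1 (7.82% of genes). The median was -0.28 for fibrillar, -0.59 for basement membrane, -0.01 for FACIT and -0.51 for other chains. With the replicate number as a block, Col5a3, Col7a1 and Col12a1 were higher at an unadjusted p under 0.05 (4.17% of genes) and Col24a1 alone was lower (3.67% of genes). The block also turned the fibrillar median to 0.02 and the FACIT median to 0.14, with -0.52 for basement membrane and -0.26 for other chains.

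These counts rested on which BcatGOF library entered. Without BcatGOF coculture library 2, 20 of 31 chains had a log2 fold change above 0 (52.3% of genes), 2 were higher at an unadjusted p under 0.05, Col5a3 and Col10a1 (0.532% of genes), and 0 were lower (0.469% of genes). The class medians were then 0.08 for fibrillar, 0.05 for basement membrane, 0.09 for FACIT and 0.03 for other chains. In this fit too, the filter favoured a higher level of Col10a1. Without BcatGOF coculture library 1, 7 of 29 chains had a log2 fold change above 0 (50.7% of genes). In that fit 4 chains were higher, Col5a3, Col7a1, Col12a1 and Col18a1 (8.98% of genes), and 8 were lower: Col1a2, Col3a1, Col4a1, Col4a2, Col8a1, Col24a1, Col27a1 and Col28a1 (9.4% of genes). It called 198 genes at an adjusted p under 0.05 (1.55%), and 0 of the 29 chains were among them. Col5a3 was higher at an unadjusted p under 0.05 with either library left out. In both fits the lone BcatGOF library was assumed to vary like the libraries of the other groups.

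Setting wild-type coculture against mesenchyme only asks the same of control epithelium. Here most chains were at a higher level in coculture, with 23 of 31 above 0 on the log2 scale (53.8% of all genes). At an unadjusted p under 0.05, Col5a3, Col7a1 and Col12a1 were higher (2.29% of genes) and Col28a1, whose direction the filter fixed, was lower (2.61% of genes). The groups did not overlap in Col5a3 and Col7a1, which were higher (6.35% of genes), and in Col24a1 and, by the filter, Col28a1, which were lower (5.61% of genes). The median was 0.43 for fibrillar, 0.14 for basement membrane, 0.42 for FACIT and 0.34 for other chains. With the replicate number as a block, 9 chains were higher at an unadjusted p under 0.05 (5.04% of genes): Col1a1, Col5a1, Col5a3, Col6a1, Col6a2, Col7a1, Col9a2, Col11a1 and Col12a1. In that blocked fit Col24a1 and Col28a1 were lower (5.28% of genes), and none of the 31 chains passed the adjusted threshold, as 2 of all genes did (0.0155%). With the block and without BcatGOF coculture library 2, Col7a1 was the single chain past the threshold in limma (adjusted p = 0.0371), among 36 genes (0.281%). Over all alternatives the adjusted p of Col7a1 ran up to 0.817.

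The comparison of BcatGOF with wild-type coculture asks how collagen transcripts differ beside these 2 kinds of epithelium. Collagen chains were mostly at a lower level in BcatGOF coculture, with 6 of 31 above 0 on the log2 scale, against 51.4% of all genes. All 10 fibrillar chains were below 0, against 9 without BcatGOF coculture library 1 and 8 without library 2. At an unadjusted p under 0.05, 6 chains were lower, Col1a1, Col5a3, Col6a1, Col6a2, Col7a1 and Col15a1 (1.77% of genes), and 0 were higher (1.11% of genes). The groups did not overlap in 9 chains that were lower (7.64% of genes) and in 0 that were higher (6.36% of genes). The 9 were these 6, Col11a1 and, favoured by the filter, Col8a2 and Col9a2. The median was -0.71 for fibrillar, -0.31 for basement membrane, -0.03 for FACIT and -0.91 for other chains. With the replicate block 7 chains were lower at an unadjusted p under 0.05 (2.85% of genes), and 0 were higher (2.18% of genes). Col15a1 was lost there, and Col5a1 and, favoured by the filter, Col9a2 were gained. The FACIT median was 0.12 with the block. Without BcatGOF coculture library 2, Col7a1 was the single chain that was lower (1.2% of genes) and Col10a1 the single one that was higher (1.9% of genes), with 10 of 31 above 0 (49.3% of genes). Without BcatGOF coculture library 1, 12 of 29 chains were lower (5.78% of genes) and 0 were higher (5.36% of genes), with 4 of 29 above 0 (49.6% of genes). The 12 were Col1a1, Col1a2, Col3a1, Col4a1, Col4a2, Col5a3, Col6a1, Col6a2, Col6a3, Col8a1, Col9a2 and Col14a1.

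Type I and type III chains make up the bulk of the fibrillar class. The type I chains had their highest mean in wild-type coculture, while Col3a1 was at similar means in wild-type coculture and mesenchyme only. Col1a1 was at 2187 and 1103 FPKM in BcatGOF coculture, at 3963, 3031 and 5725 FPKM in wild-type coculture and at 1376, 1278 and 3990 FPKM in mesenchyme only. Both BcatGOF libraries lay below all 3 wild-type cocultures, and mesenchyme only library 3 overlapped with wild-type coculture. The log2 fold change of Col1a1 was -0.30 (SE 0.58) for BcatGOF coculture over mesenchyme only, 1.10 (SE 0.52) for wild-type coculture over mesenchyme only and -1.40 (SE 0.58) for BcatGOF over wild-type coculture, with limma adjusted p of 0.979, 1 and 1. Col1a2, the partner chain of type I collagen, was at 1516 and 436 FPKM in BcatGOF coculture, at 2214, 1478 and 3106 FPKM in wild-type coculture and at 1035, 1161 and 2573 FPKM in mesenchyme only. The low value was that of BcatGOF coculture library 2, below all other libraries, and the groups overlapped. Col1a2 differed by -1.41 (SE 0.63) on the log2 scale between BcatGOF and wild-type coculture, and by -0.84 (SE 0.63) between BcatGOF coculture and mesenchyme only.

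Col3a1 was at 3237 and 758 FPKM in BcatGOF coculture, at 2807, 1831 and 4770 FPKM in wild-type coculture and at 2444, 2215 and 4892 FPKM in mesenchyme only. BcatGOF coculture library 2 was again the lowest of all, whereas library 1 was above 4 of the 6 libraries of the other groups. Its log2 fold change was -0.93 (SE 0.69) for BcatGOF coculture over mesenchyme only and -0.04 (SE 0.62) for wild-type coculture over mesenchyme only. Without BcatGOF coculture library 2 the first of these became 0.12, and without library 1 it became -1.97.

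Type V collagen, which forms mixed fibres with type I and limits their width, differed between its chains. Col5a3 was at 47.6 and 37.8 FPKM in BcatGOF coculture, at 59.9, 63.4 and 61.0 FPKM in wild-type coculture and at 30.6, 19.9 and 20.7 FPKM in mesenchyme only. The 3 groups did not overlap, with wild-type coculture highest and mesenchyme only lowest. Its log2 fold change was 0.84 (SE 0.22) for BcatGOF coculture over mesenchyme only, 1.36 (SE 0.19) for wild-type coculture over mesenchyme only and -0.52 (SE 0.22) for BcatGOF over wild-type coculture. The limma adjusted p values were 0.894, 0.317 and 1, so none of these passed over all genes, and over all alternatives they ran from 0.243 to 1, from 0.0616 to 0.810 and from 0.404 to 1. Col5a1 averaged 182 ± 107 FPKM in BcatGOF coculture (SD, n = 2), 328 ± 140 FPKM in wild-type coculture (SD, n = 3) and 200 ± 102 FPKM in mesenchyme only (SD, n = 3), and later means are over the same libraries. Col5a2 averaged 284 ± 95.7 FPKM in BcatGOF coculture, 418 ± 128 FPKM in wild-type coculture and 341 ± 106 FPKM in mesenchyme only. Both overlapped between groups, and within each replicate number both were higher in wild-type coculture than in mesenchyme only.

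Col24a1, a fibril-forming chain known from developing bone, went the other way. It was at 12.2 and 9.27 FPKM in BcatGOF coculture, at 9.48, 14.3 and 14.7 FPKM in wild-type coculture and at 15.1, 19.5 and 19.3 FPKM in mesenchyme only. All 5 cocultures lay below all 3 mesenchyme-only libraries. Its log2 fold change was -0.70 (SE 0.23) for BcatGOF coculture and -0.47 (SE 0.21) for wild-type coculture over mesenchyme only, with limma adjusted p of 0.894 and 1. The remaining fibrillar chains were at lower levels. Col27a1, also known from cartilage, averaged 7.56 ± 5.70 FPKM in BcatGOF coculture, 9.75 ± 4.13 FPKM in wild-type coculture and 11.8 ± 5.31 FPKM in mesenchyme only. Col11a1, which nucleates thin fibres, was at 0.953 and 1.65 FPKM in BcatGOF coculture and at 2.45 to 8.14 FPKM in wild-type coculture, which did not overlap, and at 0.433 to 4.57 FPKM in mesenchyme only. Col11a2, its partner, was at 0.738 to 1.78 FPKM over all 8 libraries.

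Of the basement membrane chains, the type IV pair Col4a1 and Col4a2 followed the split between the BcatGOF libraries. Col4a1 was at 608 and 204 FPKM in BcatGOF coculture, at 633, 560 and 867 FPKM in wild-type coculture and at 545, 451 and 1044 FPKM in mesenchyme only. BcatGOF coculture library 2 was the one coculture outside the range of mesenchyme only. Col4a1 differed by -0.85 (SE 0.53) on the log2 scale between BcatGOF coculture and mesenchyme only, and by 0.09 (SE 0.47) between wild-type coculture and mesenchyme only. Col4a2 averaged 268 ± 189 FPKM in BcatGOF coculture, 442 ± 79.6 FPKM in wild-type coculture and 411 ± 194 FPKM in mesenchyme only. Col4a5, a chain of the minor type IV networks, was at 38.5 and 7.74 FPKM in BcatGOF coculture, at 34.8, 12.5 and 6.16 FPKM in wild-type coculture and at 38.8, 12.7 and 29.4 FPKM in mesenchyme only. It varied more within groups than between them, and libraries numbered 1 were the highest of each group. Col4a6, encoded beside it, stayed between 0.0422 and 1.29 FPKM.

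Col15a1 and Col18a1 both carry endostatin-type domains and link basement membranes to the matrix below. Col15a1 was at 56.1 and 39.4 FPKM in BcatGOF coculture, at 66.3, 315 and 137 FPKM in wild-type coculture and at 46.3, 106 and 138 FPKM in mesenchyme only. BcatGOF coculture lay below wild-type coculture with no overlap, by -1.58 (SE 0.67) on the log2 scale (limma adjusted p = 1). Col18a1 was at 88.2 and 196 FPKM in BcatGOF coculture, at 88.5, 106 and 135 FPKM in wild-type coculture and at 85.9, 62.4 and 121 FPKM in mesenchyme only. Its highest library was BcatGOF coculture library 2, the one with the lowest Col15a1, and the groups overlapped. Col18a1 differed by 0.60 (SE 0.40) on the log2 scale between BcatGOF coculture and mesenchyme only, and by 0.28 (SE 0.40) between BcatGOF and wild-type coculture. Without BcatGOF coculture library 2 the last of these became -0.29.

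Among the FACIT chains Col12a1, which bridges type I fibres and is known from tissues under load, stood at a higher level in both cocultures. It was at 121 and 166 FPKM in BcatGOF coculture, at 194, 86.4 and 170 FPKM in wild-type coculture and at 61.7, 38.2 and 86.5 FPKM in mesenchyme only. BcatGOF coculture did not overlap with mesenchyme only, and wild-type coculture library 2 overlapped by a narrow margin. The log2 fold change over mesenchyme only was 1.25 in both, with SE 0.43 for BcatGOF coculture (limma adjusted p = 0.894) and SE 0.39 for wild-type coculture (limma adjusted p = 0.823). Col14a1, a relative found on the same fibres, averaged 7.07 ± 5.37 FPKM in BcatGOF coculture, 19.2 ± 10.0 FPKM in wild-type coculture and 13.4 ± 6.60 FPKM in mesenchyme only. Col16a1 was level, with 36.6 ± 12.5 FPKM in BcatGOF coculture, 37.0 ± 9.25 FPKM in wild-type coculture and 36.4 ± 7.79 FPKM in mesenchyme only. Col20a1 ran from 0.641 to 2.83 FPKM over the 8 libraries. Col9a2 was at 0.798 and 0.211 FPKM in BcatGOF coculture, 1.09 to 3.92 FPKM in wild-type coculture and 0.461 to 1.24 FPKM in mesenchyme only. The cocultures did not overlap in Col9a2, but the filter favoured its lower level in BcatGOF coculture.

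Of the type VI chains, which form microfilaments around cells, Col6a1 and Col6a2 were at a lower level in BcatGOF coculture than in wild-type coculture, and Col6a3 overlapped. Col6a1 was at 392 and 270 FPKM in BcatGOF coculture, at 493, 539 and 584 FPKM in wild-type coculture and at 344, 327 and 494 FPKM in mesenchyme only. Col6a2 was at 251 and 147 FPKM in BcatGOF coculture, at 343, 392 and 434 FPKM in wild-type coculture and at 207, 209 and 348 FPKM in mesenchyme only. For both chains the cocultures did not overlap, and mesenchyme only library 3 reached into the range of wild-type coculture. BcatGOF minus wild-type coculture was -0.72 (SE 0.28) on the log2 scale for Col6a1 and -1.01 (SE 0.33) for Col6a2, each with a limma adjusted p of 1. Wild-type coculture minus mesenchyme only was 0.49 (SE 0.25) for Col6a1 and 0.65 (SE 0.29) for Col6a2. Col6a3, the long chain of the type VI unit, was at 115 and 11.8 FPKM in BcatGOF coculture, at 111, 26.8 and 99.2 FPKM in wild-type coculture and at 79.5, 25.3 and 103 FPKM in mesenchyme only. The library numbered 2 was the lowest of each group in Col6a3, and BcatGOF coculture library 1 was the highest of all 8. BcatGOF minus wild-type coculture was -0.81 for Col6a3, and 0.77 without BcatGOF coculture library 2.

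Col7a1, the anchoring fibril chain that ties epithelium to stroma, was low and yet set the groups apart. It was at 2.30 and 3.54 FPKM in BcatGOF coculture, at 6.15, 5.08 and 12.0 FPKM in wild-type coculture and at 1.01, 1.03 and 1.74 FPKM in mesenchyme only. The 3 groups did not overlap, in the same order as for Col5a3. Its log2 fold change was 0.79 (SE 0.34) for BcatGOF coculture over mesenchyme only, 1.89 (SE 0.31) for wild-type coculture over mesenchyme only and -1.10 (SE 0.34) for BcatGOF over wild-type coculture, with limma adjusted p of 0.894, 0.371 and 1. The 1 added before the log shrinks these changes, and with 0.1 in its place the wild-type value became 2.47. Epithelial cells also make Col7a1, and the epithelial marker sums stand above. In wild-type coculture libraries 1, 2 and 3 those markers summed to 17.4, 5.62 and 121 FPKM, beside 6.15, 5.08 and 12.0 FPKM of Col7a1. In BcatGOF coculture libraries 1 and 2 they summed to 29.7 and 121 FPKM, beside 2.30 and 3.54 FPKM of Col7a1. The part of epithelial RNA in the Col7a1 values was not tested.

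Col28a1, related to type VI collagen and known from peripheral nerve, was low in both cocultures. It was at 0.494 FPKM and listed at 0 in BcatGOF coculture, at 0.185, 0.0240 and 0.0815 FPKM in wild-type coculture and at 0.722, 1.04 and 1.05 FPKM in mesenchyme only. These levels are a description, since 2 mesenchyme-only libraries brought Col28a1 past the filter. Col8a1, a network-forming chain of vessel walls, was at 36.9 and 2.90 FPKM in BcatGOF coculture, at 56.5, 9.59 and 30.3 FPKM in wild-type coculture and at 29.7, 35.9 and 69.8 FPKM in mesenchyme only. BcatGOF coculture library 2 was by far the lowest, and the groups overlapped. Col8a1 differed by -1.83 (SE 1.01) on the log2 scale between BcatGOF coculture and mesenchyme only, which became -0.19 without that library. Col8a2, its partner, was at 0.416 and 0.649 FPKM in BcatGOF coculture, 0.698 to 11.7 FPKM in wild-type coculture and 0.483 to 15.5 FPKM in mesenchyme only.

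The transmembrane chain Col13a1 was at 1.49 and 4.30 FPKM in BcatGOF coculture, at 1.64, 30.4 and 10.0 FPKM in wild-type coculture and at 2.30, 12.3 and 7.46 FPKM in mesenchyme only. Libraries numbered 1 were the lowest of each group, and the groups overlapped. BcatGOF coculture minus mesenchyme only was -0.98 (SE 1.00) on the log2 scale, and BcatGOF minus wild-type coculture was -1.42 (SE 1.00). Col10a1, a chain of growth-plate cartilage, was at 4.18 and 0.564 FPKM in BcatGOF coculture, at 2.15, 0.461 and 0.557 FPKM in wild-type coculture and at 0.222 to 0.517 FPKM in mesenchyme only. Its BcatGOF level rested on library 1. Col23a1, another transmembrane chain, was at 0.295 to 2.09 FPKM over the 8 libraries.

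Deviations from group means correlated positively between libraries of the same replicate number. These correlations are not independent, and what the number marks is not stated. Differences were also taken within numbers, on the log2(FPKM + 1) scale. BcatGOF coculture minus mesenchyme only split by number: 24 of 31 chains were higher in number 1 (median 0.27), and 9 of 31 were higher in number 2 (median -0.30). Among all genes 50.5% and 49.2% were higher in these pairs. Wild-type coculture minus mesenchyme only was above 0 in 22, 23 and 19 of 31 chains in numbers 1, 2 and 3, against 52.6%, 49.2% and 53.6% of all genes. BcatGOF minus wild-type coculture was above 0 in 12 and 7 of 31 chains, against 47.5% and 49.6% of all genes. The comparisons with mesenchyme only share those libraries here too.

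Some chains kept 1 direction in every pair. In wild-type coculture minus mesenchyme only, 14 chains were higher in all 3 pairs (20.6% of all genes). Among them were Col1a1, Col1a2, Col5a1, Col5a2, Col5a3, Col6a1, Col6a2, Col7a1, Col12a1 and, favoured by the filter, Col10a1. Col24a1, Col27a1, Col4a5 and, by the filter, Col28a1 were lower in all 3 (17.4% of genes). For Col1a1 the differences were 1.52, 1.25 and 0.52, for Col5a3 0.94, 1.62 and 1.52, and for Col7a1 1.83, 1.59 and 2.25. In BcatGOF coculture minus mesenchyme only, 7 chains were higher in both pairs (28.9% of genes). These were Col5a3, Col7a1, Col11a1, Col12a1, Col18a1, Col20a1 and, favoured by the filter, Col10a1. Col4a5, Col13a1, Col24a1 and, helped by the filter, Col8a2 and Col28a1 were lower in both (28.5% of genes). For Col12a1 these differences were 0.96 and 2.09, and for Col3a1, which changed sign, they were 0.41 and -1.55. In BcatGOF minus wild-type coculture 16 chains were lower in both pairs (24.5% of genes), among them, favoured by the filter, Col8a2 and Col9a2. There 4 were higher in both (22.2% of genes), namely Col10a1, Col16a1, Col20a1 and, favoured by the filter, Col4a6. Col1a1 gave -0.86 and -1.46 there, and Col7a1 gave -1.11 and -0.42.

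**Figure D3:**
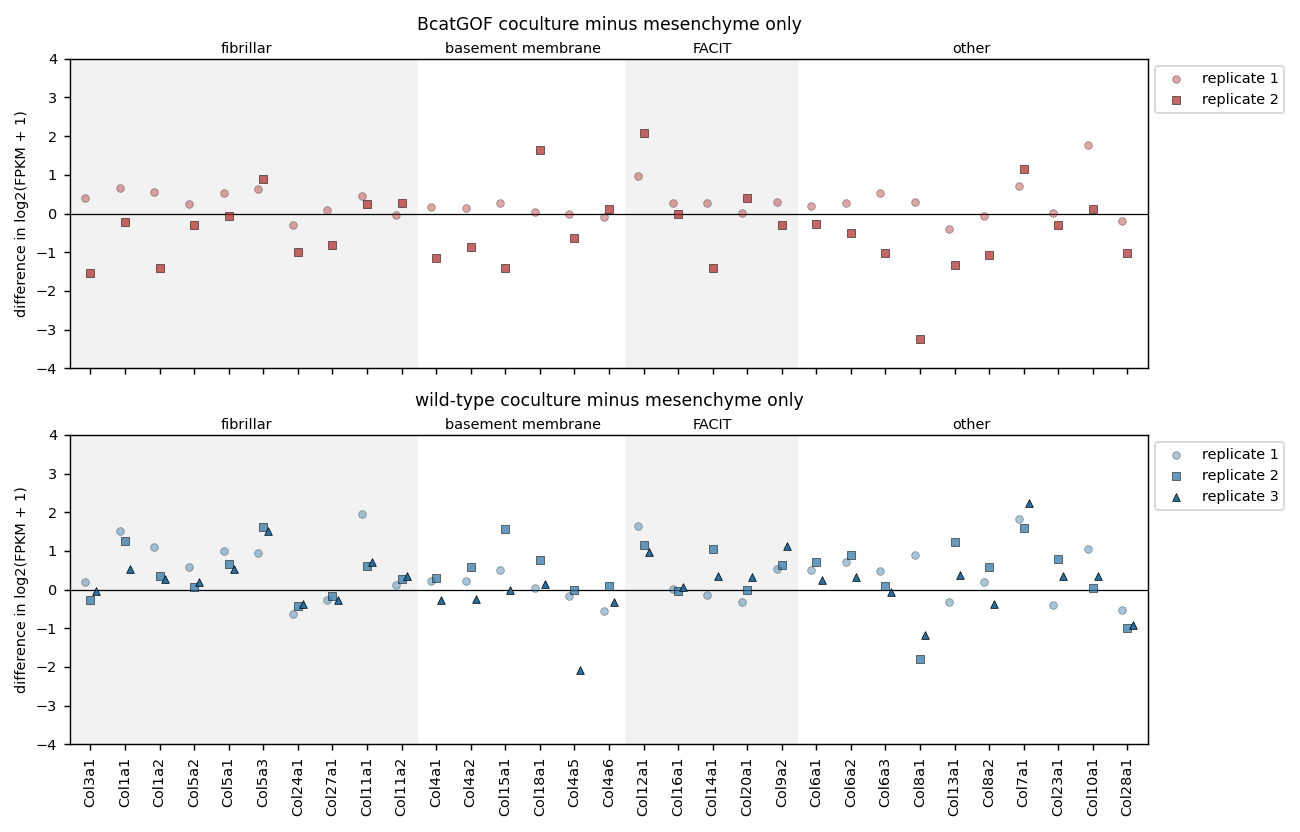
Difference in log2(FPKM + 1) between libraries of the same replicate number, for BcatGOF coculture minus mesenchyme only (upper panel, 2 pairs) and wild-type coculture minus mesenchyme only (lower panel, 3 pairs). Each symbol is 1 pair; Col5a3, Col7a1 and Col12a1 are above 0 in all 5 pairs, Col24a1 is below 0 in all 5, and Col3a1 and Col8a1 reach -1.55 and -3.24 in the second BcatGOF pair.

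Ratios between chains were taken within libraries, where library size drops out. Some pairs are chains of 1 collagen type, which are built into the same molecule. Others, such as Col1a1 and Col3a1, are of different types. The 12 ratios were chosen after the values had been seen. Col1a1 over Col3a1 was 0.676 and 1.45 in BcatGOF coculture, 1.42 ± 0.228 in wild-type coculture (SD, n = 3, 1.20 to 1.66) and 0.652 ± 0.142 in mesenchyme only (SD, n = 3, 0.563 to 0.816). Wild-type coculture did not overlap with mesenchyme only, while BcatGOF coculture library 1 lay in the range of mesenchyme only and library 2 in that of wild-type coculture. Col1a1 over Col1a2, the type I pair, was 1.44 and 2.53 in BcatGOF coculture, 1.79 to 2.05 in wild-type coculture and 1.10 to 1.55 in mesenchyme only. In both ratios the exact two-sided permutation test of wild-type coculture against mesenchyme only gave p = 0.1, the smallest that 3 against 3 libraries allow.

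The other ratios differed in how far they varied. Col4a1 over Col4a2, which are transcribed from a shared promoter region, stayed between 1.50 and 1.83 in all 8 libraries. Col6a1 over Col6a2 was 1.56 and 1.84 in BcatGOF coculture and 1.35 to 1.44 in wild-type coculture, with no overlap (exact permutation p = 0.2, the smallest that 2 against 3 allow), and 1.42 to 1.66 in mesenchyme only. Col18a1 over Col15a1 was 1.57 and 4.97 in BcatGOF coculture, 0.337 to 1.33 in wild-type coculture and 0.589 to 1.86 in mesenchyme only. Col12a1 over Col1a1 was 0.0554 and 0.150 in BcatGOF coculture, above all 3 wild-type cocultures (0.0285 to 0.0489) and all 3 mesenchyme-only libraries (0.0217 to 0.0448). Over the 36 exact permutation tests of 12 ratios the lowest p was 0.1 and the lowest Benjamini-Hochberg adjusted p was 0.655, so none passed.

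**Figure D4:**
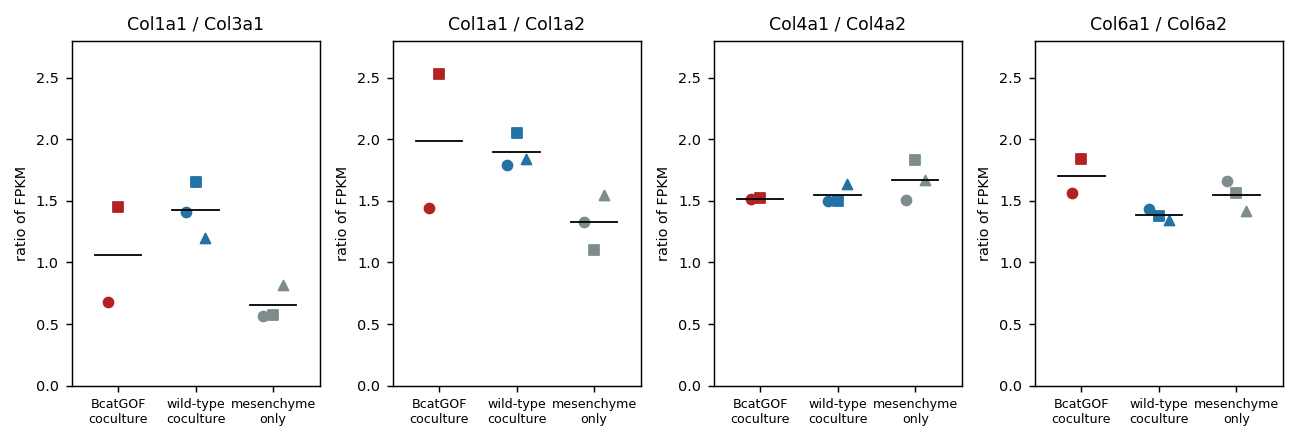
Ratio of FPKM between 2 chains in each library, for 4 pairs of chains (vertical axes, linear from 0). Circles, squares and triangles are replicates 1, 2 and 3, and the horizontal lines are group means; Col1a1 over Col3a1 was 1.20 to 1.66 in wild-type coculture and 0.563 to 0.816 in mesenchyme only.

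The genes that process and bind collagen were listed by step, and with all libraries none of them passed limma at an adjusted p under 0.05 in any direction or comparison. Of all genes, 52.4% had a log2 fold change above 0 in BcatGOF coculture and 53.8% in wild-type coculture over mesenchyme only. The share was 51.4% in BcatGOF over wild-type coculture. Hydroxylation, glycosylation and folding comprised 17 genes with 16 tested, of which 12 were above 0 in BcatGOF coculture over mesenchyme only (median 0.16), 16 in wild-type coculture over mesenchyme only (median 0.33) and 4 in BcatGOF over wild-type coculture (median -0.13). Its most abundant members were Serpinh1, the main collagen chaperone, at 1149 ± 44.9 FPKM in BcatGOF coculture, 1537 ± 125 FPKM in wild-type coculture and 1246 ± 272 FPKM in mesenchyme only, and P4hb. P4hb, a prolyl hydroxylase subunit, was at 598 ± 188 FPKM in BcatGOF coculture, 544 ± 6.80 FPKM in wild-type coculture and 433 ± 28.3 FPKM in mesenchyme only. All 5 lysyl oxidases, which cross-link collagen, were above 0 in wild-type coculture over mesenchyme only (median 0.52), against 4 in BcatGOF coculture over mesenchyme only (median 0.17) and 1 in BcatGOF over wild-type coculture (median -0.40). The lysyl oxidase median over mesenchyme only became -0.04 without BcatGOF coculture library 1, and that of the hydroxylation list for BcatGOF over wild-type coculture became 0.10. Loxl1 averaged 210 ± 15.4 FPKM in BcatGOF coculture, 340 ± 72.5 FPKM in wild-type coculture and 251 ± 39.8 FPKM in mesenchyme only. Loxl2 averaged 189 ± 42.3 FPKM in BcatGOF coculture, 254 ± 87.8 FPKM in wild-type coculture and 175 ± 61.2 FPKM in mesenchyme only. Lox averaged 155 ± 54.5 FPKM in BcatGOF coculture, 256 ± 42.1 FPKM in wild-type coculture and 120 ± 43.3 FPKM in mesenchyme only. Lox and Loxl3 were higher in wild-type coculture than in mesenchyme only with no overlap (6.35% of genes), with limma adjusted p of 0.804 and 0.859. Loxl1, Loxl2 and Loxl4 overlapped there.

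Of 8 genes that remove propeptides, 6 were tested, and 0 were above 0 in BcatGOF coculture over mesenchyme only (median -0.54), 2 in wild-type coculture over mesenchyme only (median -0.11) and 1 in BcatGOF over wild-type coculture (median -0.42). The direction rested on 1 library: without BcatGOF coculture library 2, 5 of 6 were above 0 over mesenchyme only (median 0.13) and 4 of 6 over wild-type coculture (median 0.25), and without library 1 the median over mesenchyme only was -1.21. Pcolce, an enhancer of propeptide cleavage, averaged 272 ± 158 FPKM in BcatGOF coculture, 347 ± 65.6 FPKM in wild-type coculture and 353 ± 54.4 FPKM in mesenchyme only. Bmp1, the protease itself, averaged 155 ± 36.3 FPKM in BcatGOF coculture, 211 ± 6.88 FPKM in wild-type coculture and 172 ± 6.27 FPKM in mesenchyme only. Of the 8 collagen receptors, 3, 4 and 3 were above 0 in the same order of comparisons, with medians of -0.18, -0.02 and -0.06, the last of which was 0.12 without BcatGOF coculture library 2. Itga2, an integrin subunit that binds collagen and is also made by epithelium, was at 1.80 and 21.1 FPKM in BcatGOF coculture, 1.97, 4.42 and 1.71 FPKM in wild-type coculture and 1.30, 2.16 and 0.710 FPKM in mesenchyme only. It passed limma against mesenchyme only without BcatGOF coculture library 1 (log2 fold change 3.25, adjusted p = 0.0346), while the adjusted p was 0.894 with all libraries, 0.632 with the block and 1 without library 2. Itgb1, the common integrin subunit, averaged 262 ± 43.8 FPKM in BcatGOF coculture, 238 ± 66.0 FPKM in wild-type coculture and 244 ± 38.1 FPKM in mesenchyme only. Mrc2, which takes up collagen fragments, averaged 65.8 ± 12.5 FPKM in BcatGOF coculture, 76.6 ± 9.82 FPKM in wild-type coculture and 79.2 ± 30.2 FPKM in mesenchyme only.

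The authors' deposited table of 2184 genes, which compares BcatGOF coculture with mesenchyme only, lists 12 collagen chains. The table holds genes with an adjusted p of up to 0.0150, and how that threshold was set is not stated. The authors' deposited table gives 3 chains as higher, Col7a1 at a log2 fold change of 2.08, Col5a3 at 1.22 and Col18a1 at 1.10 (42.4% of its genes are higher). The authors' deposited table gives 9 chains as lower (57.6% of its genes): Col24a1 at -1.11, Col4a2 at -1.42, Col4a1 at -1.61, Col1a2 at -1.64, Col3a1 at -1.81, Col14a1 at -2.22, Col8a1 at -3.76, Col28a1 at -8.60 and Col6a5 at -8.80. Of these 12, Col28a1 and Col6a5 are the ones listed at 0 FPKM in BcatGOF coculture library 2, and a fold change fitted against 0 in the authors' deposited table is not a measured size. No column heading of the table states its direction, which was taken from the FPKM signs.

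On the log2(FPKM + 1) scale, BcatGOF coculture library 2 was set against the mean of the mesenchyme-only libraries. The signs in the authors' deposited table matched those of this difference in all 11 chains that were both listed and kept, and in 1955 of 1955 genes (100%). Against BcatGOF coculture library 1 alone they matched in 8 of 11 chains and in 1171 genes (59.9%), and against both libraries together in 11 of 11 chains and 1950 genes (99.7%). The median distance of the 11 chains between the authors' deposited table and the log2(FPKM + 1) difference was 0.24 for library 2, 1.55 for library 1 and 0.80 for both. Which libraries entered that table is not stated. In limma on the FPKM of both libraries none of the 11 chains passed, and Col3a1, for example, had an adjusted p of 0.946.

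**Figure D5:**
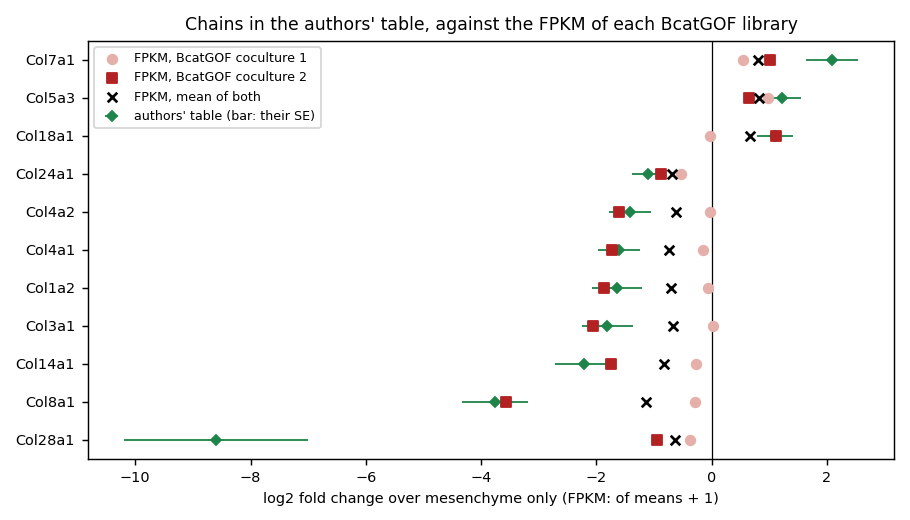
Log2 fold change of BcatGOF coculture over mesenchyme only for the 11 chains in both tables: from the authors' deposited table (diamonds, bars are their SE) and from FPKM + 1 of BcatGOF coculture library 1, library 2 and their mean. The FPKM symbols are log2 ratios of means, whereas the sign counts in the text use means of log2(FPKM + 1), so small values can differ in sign. For Col3a1 the authors' value was -1.81, next to -2.07 for library 2 and 0.02 for library 1.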

How the data were processed

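RNA-seq of polyadenylated RNA from 8 libraries was analysed from the deposited tables. The FPKM values were made by the authors, whose processing notes list DESeq2 1.40.1, kallisto 0.46.1 and build mm9 without saying which step used them, per the submitters' processing notes. The way FPKM was computed is not stated, read depth is unknown, and no interval that needs it is given. A second table, deposited by the authors, holds 2184 genes with a mean normalised signal, a log2 fold change with its standard error, a test score, a p-value and an adjusted p-value, per the file headers. Only the log2 fold change and the adjusted p-value of that table deposited by the authors were printed.

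Here log2(FPKM + 1) was fitted with limma 3.58.1 in R 4.3.3 (trend and robust options, group means over all 8 libraries, 5 residual degrees of freedom), for the 12927 genes at 1 FPKM or more in at least 2 libraries. P-values were adjusted by Benjamini and Hochberg over these genes, with a threshold of 0.05. A fold change on this scale understates the change of low genes. Ratios were compared by exact two-sided permutation tests. The fit was tested on simulated data.

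Libraries of the same replicate number were taken as pairs. The deviations from group means correlated at 0.301 to 0.554 over the 7 pairs of the same number, against -0.483 to 0.208 over 14 other pairs. Deviations within a group cancel out, so positive values in same-number pairs push the other pairs towards negative values. The other pairs are therefore no independent comparison. The labels share a name prefix per number without saying what it marks. BcatGOF coculture has no library 3.

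The chains, the lists of partner and marker genes and the alternatives were chosen with earlier results of these data known. Values in every library are given for chains with an adjusted p under 0.05, with an unadjusted p under 0.05 and groups that did not overlap, among the 5 most abundant, or among the 3 largest changes in each direction at a mean of at least 5 FPKM. Promoter windows came from RefSeq tables on GRCm38.p6. The alternatives changed the pseudocount, the filter, the scaling (quantile or trimmed mean of M values), the limma options, the libraries and the replicate block.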

Additional observations from a re-analysis of the deposited data

How the results depend on the processing

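There were 17 planned and 2 added alternatives, the second kind chosen after seeing the data. Over these, 643 values of single chains kept their direction and side of the threshold, 32 changed sign and 1 crossed the threshold. Among summary values, 150 stayed close to the main value and 21 moved. Close meant within 1.5 times for a count and within 0.409 on the log2 scale for a median. A median could thus change sign and still count as close. In BcatGOF coculture against mesenchyme only, 1 gene was called, against 6 with no filter, 0 with a mean of at least 5 FPKM, 2 without wild-type coculture library 3 and BcatGOF coculture library 2 together, 0 with the replicate block and no BcatGOF coculture library 2, and 1 to 198 with a library left out. In wild-type coculture against mesenchyme only, 1 gene was called, against 0 with the mean filter, 2 with the replicate block, 9 with the 2 groups alone, 9 without the 2 libraries, 36 with the replicate block and no BcatGOF coculture library 2 (1 collagen chain, Col7a1), and 1 to 9 with a library left out. In BcatGOF against wild-type coculture 0 genes were called, and 4 with no filter. The median of the chains was -0.30 for BcatGOF coculture over mesenchyme only, -0.12 with the replicate block, -0.09 with no filter, -0.65 with the mean filter, -0.77 to 0.064 with a library left out and 0.18 with the block and no BcatGOF coculture library 2. For wild-type coculture over mesenchyme only it was 0.28, 0.13 with no filter and 0.11 to 0.55 with a library left out. For BcatGOF over wild-type coculture it was -0.81, -0.55 with the replicate block, -0.21 with no filter, -1.07 to -0.22 with a library left out, 0.00011 without the 2 libraries and -0.14 with the block and no BcatGOF coculture library 2. At the adjusted threshold the replicate block alone moved no other count by over 1.5 times and changed no call of a chain.

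The signs of abundant chains turned mostly with BcatGOF coculture library 2, and the cause was not tested. For BcatGOF coculture over mesenchyme only, a library left out gave -0.80 to 0.23 for Col1a1, -1.97 to 0.12 for Col3a1, -1.74 to 0.057 for Col1a2 and -0.50 to 0.037 for Col6a1. Without the 2 libraries these were 0.19, 0.12, 0.057 and 0.037, and with the block and no BcatGOF coculture library 2 they were 0.45, 0.29, 0.29 and 0.17, with 0.094 for Col4a1. The block alone gave 0.084 for Col1a1. For wild-type coculture over mesenchyme only, a library left out gave -0.39 to 0.32 for Col3a1 and -0.16 to 0.44 for Col4a1, which was -0.023 with quantile scaling and -0.093 without the 2 libraries. For BcatGOF over wild-type coculture, a library left out gave -0.79 to 1.39 for Col4a5, -1.94 to 0.16 for Col3a1 and -0.29 to 0.85 for Col18a1. Without the 2 libraries Col3a1 was 0.51, Col18a1 -0.13 and Col4a1 0.031, and with the block and no BcatGOF coculture library 2 they were 0.32, -0.14 and 0.0074. Depth is unknown, so chains near 1 FPKM have no stated counting error.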
